A study of Mus musculus with 16 samples.

Results

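Prelimbic cortex (PL) neurons that project to the basolateral amygdala (PL-BLA) were set against those that project to the ventral tegmental area (PL-VTA), gene by gene, by how strongly their ribosomes held each mRNA. The genes compared are the 12097 that had a mean normalized count of at least 50 in both projections, of 39017 gene rows in each of the authors' deposited tables and of 21613 rows with a fold change in both. The quantity for each gene is a log2 fold change of immunoprecipitated (IP) over Input RNA, and the comparison is the PL-BLA value minus the PL-VTA value. The mice were C57BL/6J, and the series holds 16 libraries in all. The mice of all groups used here received the same virus in PL, AAV-IV-GFPL10, which carries a ribosomal protein L10 fused to GFP, and CAV-Cre, a canine adenovirus with Cre recombinase that axon terminals take up, in the target region. The PL-BLA groups, with CAV-Cre in the BLA, comprised 3 IP and 3 Input libraries. The PL-VTA groups, with CAV-Cre in the VTA, comprised 2 IP and 2 Input libraries. A further PL-NAc set, with CAV-Cre in the nucleus accumbens (NAc), had 3 and 3 libraries and stands beside the comparison. Each Input is total RNA of the PL around the tagged cells. The sources used here do not give age, sex, pooling of mice or whether replicates were separate animals, so the errors measure only the spread between these libraries, which may be technical.

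Deep cortical projection neurons fall into broad kinds. Intratelencephalic neurons send axons within the forebrain, including to other cortex, the striatum and the amygdala, whereas extratelencephalic neurons of layer 5 send a main axon to the midbrain, hindbrain or spinal cord. Fezf2 and Bcl11b (also called Ctip2) are transcription factors that specify the extratelencephalic kind during development, and Cux2 and Lhx2 belong to programmes of intratelencephalic and upper-layer neurons. In viral translating ribosome affinity purification (vTRAP), an antibody to GFP pulls down tagged ribosomes with the mRNA they are translating, so that a gene used more by the tagged cells than by the surrounding tissue has a positive IP over Input value. These are bulk libraries, in which fewer cells of a type and less RNA per cell cannot be told apart.

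The deposited mean normalized counts summed to 16347808 for PL-BLA and 16520414 for PL-VTA. The depth of each library is not known from these tables. They give 1 mean, 1 fold change and 1 standard error for each gene and projection, with no value per library. Errors were wider in PL-VTA, with a median SE of 0.22 against 0.13 in PL-BLA over the 12097 genes. The direction of the fold change was read from the values. Oligodendrocyte markers had a median of -2.22 in PL-BLA and -2.17 in PL-VTA in the authors' deposited tables, and astrocyte markers had -1.30 and -1.44, so cells that should not carry the tag were lower in the IP of both. The label of a cortical excitatory projection neuron held in part, by the authors' deposited adjusted p under 0.05. Of 18 excitatory markers 13 were up and 3 down in PL-BLA, and 4 were up and 4 down in PL-VTA. Up calls were fewer in PL-VTA over all genes compared, at 13.7% against 29.1% in PL-BLA.

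The sequence just upstream of 3 genes is shown because these genes lie at opposite ends of the comparison and each window holds at least 1 of 6 searched motifs. Igfbp4 was much higher in PL-VTA, Neurod6 and Tnnc1 much higher in PL-BLA. Each window is the 250 bases before the RefSeq start, 5′ to 3′ on the strand of the gene, from RefSeq on GRCm38.p6, with motif matches in capitals. The positions are chr11:99040994-99041243 (plus strand) for Igfbp4, chr6:55681264-55681513 (minus strand) for Neurod6 and chr14:31208062-31208311 (plus strand) for Tnnc1.
Igfbp4: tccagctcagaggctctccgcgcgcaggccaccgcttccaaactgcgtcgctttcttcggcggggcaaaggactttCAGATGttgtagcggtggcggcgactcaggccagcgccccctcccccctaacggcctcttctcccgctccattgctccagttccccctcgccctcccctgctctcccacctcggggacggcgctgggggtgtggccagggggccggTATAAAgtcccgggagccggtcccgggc
Neurod6: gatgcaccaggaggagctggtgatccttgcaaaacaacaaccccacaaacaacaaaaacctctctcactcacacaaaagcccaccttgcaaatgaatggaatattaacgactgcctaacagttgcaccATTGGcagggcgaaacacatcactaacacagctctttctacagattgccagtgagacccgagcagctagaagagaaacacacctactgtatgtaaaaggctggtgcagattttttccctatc
Tnnc1: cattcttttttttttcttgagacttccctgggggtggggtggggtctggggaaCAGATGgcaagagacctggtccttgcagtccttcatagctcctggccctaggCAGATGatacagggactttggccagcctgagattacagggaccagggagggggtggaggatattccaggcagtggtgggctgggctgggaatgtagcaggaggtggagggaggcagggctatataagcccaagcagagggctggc
In the Igfbp4 window CAGATG began 174 bases and TATAAA 28 bases before the start. In the Neurod6 window a CCAAT match, read on the opposite strand as ATTGG, began 122 bases before it. In the Tnnc1 window CAGATG began 197 and 145 bases before it. Windows were found for 224 of 297 genes searched among those higher in PL-BLA, for 214 of 291 among those lower, and for 9046 of all 11777 genes searched, with 1 chromosome left out. Both strands were searched, and no motif contains another. TATAAA was in 5.36% of the higher set, 7.01% of the lower set, 5.72% of all genes compared and 12.4% of the 32851 RefSeq windows. CAGATG, an E-box of the kind bound by NeuroD factors, was in 12.1%, 7.94%, 9.32% and 14.4% of these. CCAAT was in 34.8%, 36.0%, 36.5% and 33.8%, and GGGCGG in 60.7%, 57.0%, 60.8% and 32.7%. TGACGTCA, the cyclic AMP response element, was in 2.68%, 1.40%, 3.03% and 1.55%, and ATGCAAAT, the octamer of POU factors, in 0.893%, 0.467%, 1.16% and 1.60%. The sets lay within a few percentage points of all genes compared for each motif, and these shares were not tested.

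Most genes had like enrichment in both projections, and a small set differed strongly. Of the 12097 genes, 607 differed at a Benjamini-Hochberg adjusted p under 0.05 by a two-sided Wald z test, or 5.02%. Among the called, 306 were higher in PL-BLA (2.53% of the genes compared) and 301 were lower (2.49%). Over all 21613 genes tested, 3.05% were called, 1.56% higher and 1.49% lower. The difference reached 2-fold for 154 of the higher and 191 of the lower genes, and 4-fold for 26 and 39. Over all genes compared the median difference was -0.02 on the log2 scale, with 5% below -0.63 and 5% above 0.57, and the median SE of a difference was 0.25. The smallest called difference was 0.45 in size and the median called one 1.07. At an unadjusted p under 0.05 there were 1511 genes. With both errors multiplied by 1.5, 67 higher and 63 lower genes were called. When the test was against a difference of 0.5 in size instead of 0, 67 higher and 74 lower genes were called.

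**Figure D1:**
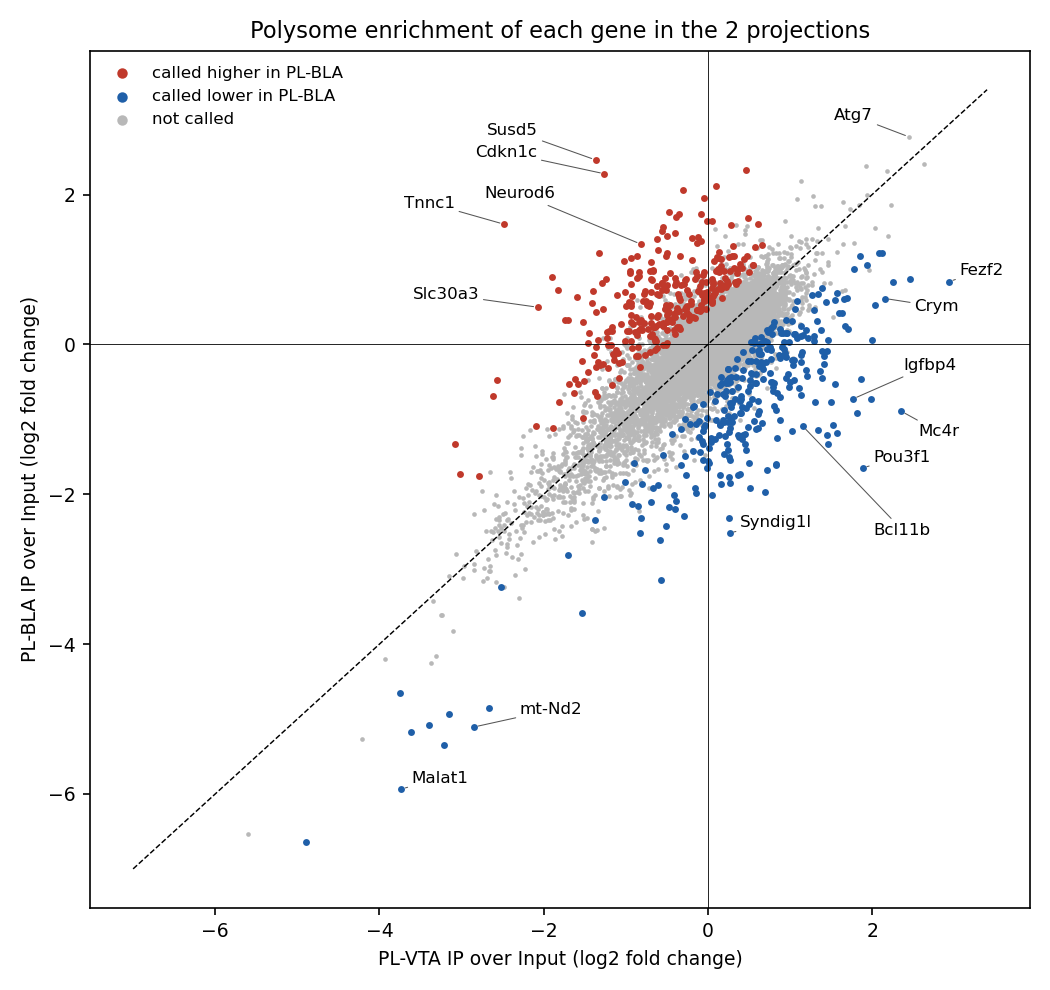
Log2 fold change of IP over Input in PL-VTA (horizontal axis) and PL-BLA (vertical axis) from the authors' deposited tables, 1 point per gene for 12097 genes; red marks the 306 genes called higher and blue the 301 called lower in PL-BLA, grey the rest, and the dashed line is equality. Most points lie along the line, Tnnc1 and Susd5 lie far above it, and Pou3f1 and Mc4r far below it.

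Many of the differences were of direction as well as of size. Of the genes compared, 29.1% were up and 22.9% down in PL-BLA by the authors' deposited table, and 13.7% were up and 11.8% down by that of PL-VTA. Among the genes called different, 63 were up in PL-BLA and down in PL-VTA, and 45 were down in PL-BLA and up in PL-VTA. These 108 genes are 0.893% of those compared. A further 146 higher genes were up in PL-BLA and 58 down in PL-VTA with no call in the other table. Likewise 131 lower genes were down in PL-BLA and 73 up in PL-VTA with no call in the other. Up in both tables were 14 of the higher and 30 of the lower genes, among the latter Fezf2 and Crym.

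Pou3f1, a POU transcription factor, had the largest difference toward PL-VTA. In the authors' deposited tables it was at -1.65 ± 0.13 in PL-BLA and 1.89 ± 0.14 in PL-VTA (log2 fold change of IP over Input ± SE). The difference was -3.53 ± 0.20, an 11.6-fold ratio of enrichments (Wald z, Benjamini-Hochberg adjusted p = 2.4e-69). Pou3f1 (ENSMUSG00000090125) lies on the plus strand of chromosome 4, from 124656807 to 124660655 on GRCm38 in GENCODE M21. Mc4r, the melanocortin 4 receptor, was 9.49-fold lower in PL-BLA, with a difference of -3.25 ± 0.43 (Wald z, adjusted p = 2.2e-11). Its value was -0.89 ± 0.32 in PL-BLA and 2.36 ± 0.29 in PL-VTA in the authors' deposited tables. Both genes were below Input in 1 projection and above it in the other. The mean of Mc4r in PL-BLA, 50.4, was close to the minimum of 50.

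The other 13 of the 15 largest differences toward PL-VTA were between -2.79 and -2.44. Cxcl12, the chemokine ligand of Cxcr4, differed by -2.71 ± 0.24, and Igfbp4, a secreted binding protein of insulin-like growth factors, by -2.49 ± 0.18 (adjusted p of 1e-25 and 6.9e-42, Wald z). In PL-BLA Igfbp4 stood at -0.73 ± 0.09, against 1.77 ± 0.15 in PL-VTA, in the authors' deposited tables. Igfbp4 (ENSMUSG00000017493) lies on chromosome 11 from 99041244 to 99054392, next to the window printed above. Npr3, the clearance receptor of natriuretic peptides, differed by -2.75 ± 0.39, and Gpr4, a proton-sensing receptor, by -2.60 ± 0.43. Shisa2, an inhibitor of Wnt and FGF receptor maturation, differed by -2.66 ± 0.38. Fam84b (-2.79 ± 0.40), Tcerg1l (-2.72 ± 0.28), the homeobox gene Sebox (-2.67 ± 0.46), Sh3rf2 (-2.57 ± 0.53) and the tektin gene Tekt5 (-2.48 ± 0.27) were also among the 15 largest. The 3 remaining, Syndig1l (-2.78 ± 0.47), the RNA-binding protein gene Carhsp1 (-2.57 ± 0.47) and the G protein subunit gene Gng7 (-2.44 ± 0.16), were all below Input in PL-BLA. Syndig1l and Carhsp1 had an SE in PL-VTA 2.82 and 2.71 times that of genes of like mean, and the Carhsp1 call was lost when the shrinkage of the deposited fold changes was approximately undone (-2.09 ± 0.91, adjusted p = 0.37, Wald z).

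Tnnc1 led the genes higher in PL-BLA. It encodes the troponin C of heart and slow muscle and was in the list of layer 5 intratelencephalic genes. In the authors' deposited tables it was at 1.61 ± 0.11 in PL-BLA and -2.48 ± 0.33 in PL-VTA. The difference of 4.09 ± 0.35 is a 17.0-fold ratio of enrichments (Wald z, adjusted p = 4.6e-28). Tnnc1 (ENSMUSG00000091898) lies on the plus strand of chromosome 14, from 31208312 to 31211729. Susd5, a gene of the sushi domain family, differed by 3.83 ± 0.42, and Cdkn1c, an imprinted inhibitor of cyclin-dependent kinases, by 3.54 ± 0.37 (adjusted p of 3.3e-17 and 3e-18, Wald z). Each was more than 4-fold above Input in PL-BLA and below Input in PL-VTA.

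The other 12 of the 15 largest differences toward PL-BLA were between 2.11 and 2.80. Slc30a3, the transporter that loads zinc into synaptic vesicles, was at 0.50 ± 0.07 in PL-BLA and -2.07 ± 0.16 in PL-VTA in the authors' deposited tables, a difference of 2.57 ± 0.18 (adjusted p = 2.1e-43, Wald z). Slc24a3, a sodium, calcium and potassium exchanger, differed by 2.13 ± 0.20, and Slc26a4, the anion exchanger pendrin, by 2.36 ± 0.48. Car4, a membrane-anchored carbonic anhydrase, differed by 2.55 ± 0.25, and the matrix protein gene Smoc2 by 2.55 ± 0.29. Neurod6, a basic helix-loop-helix factor of excitatory cortical neurons, differed by 2.16 ± 0.17 (adjusted p = 4.5e-34, Wald z). Neurod6 (ENSMUSG00000037984) lies on the minus strand of chromosome 6 from 55677822 to 55681263. Il12a (2.80 ± 0.47), Sccpdh (2.25 ± 0.17), the Bcl2 family gene Bok (2.22 ± 0.21), the myosin light chain gene Myl4 (2.12 ± 0.26), Rasl10a (2.11 ± 0.21) and Nptx2 (2.11 ± 0.26), a secreted pentraxin of excitatory synapses, complete the 15 largest. By the sign of the value all 15 were above Input in PL-BLA and below it in PL-VTA, and the means of Il12a and Slc26a4 in PL-VTA, 61.0 and 50.3, were close to the minimum of 50.

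**Figure D2:**
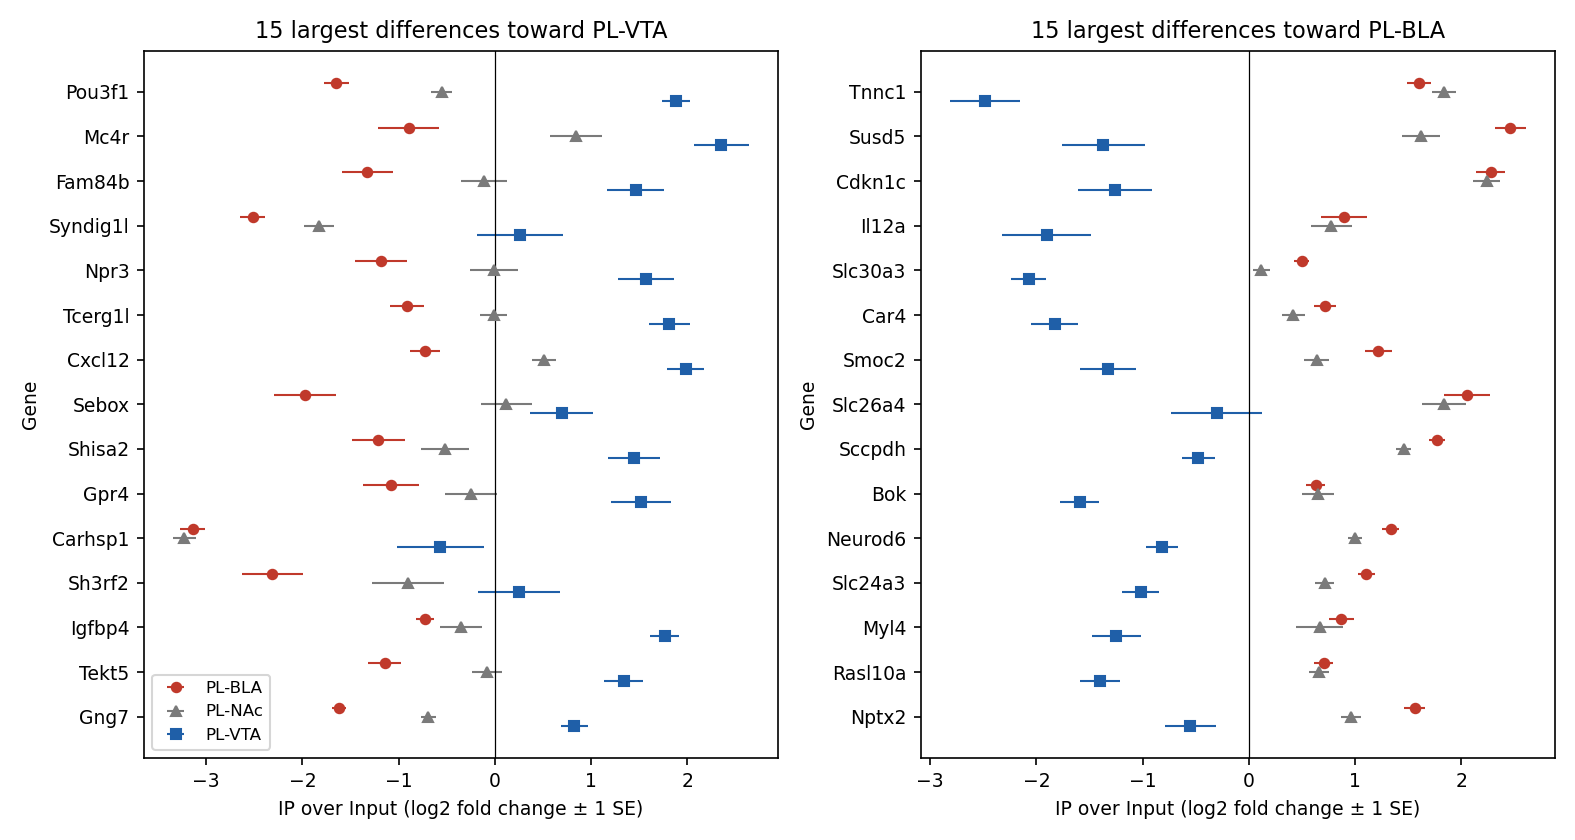
Log2 fold change of IP over Input from the authors' deposited tables for the 15 genes with the largest called difference toward PL-VTA (left) and toward PL-BLA (right); circles are PL-BLA, triangles PL-NAc and squares PL-VTA, and bars are 1 SE. Pou3f1 sits at -1.65 in PL-BLA and 1.89 in PL-VTA, Tnnc1 at 1.61 and -2.48, and the PL-NAc points of the right panel lie close to those of PL-BLA.

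The layer 5 extratelencephalic list differed most among the identity lists. Of its 20 genes in the tables, 16 were compared, and 14 (87.5%) were lower in PL-BLA and 0 higher, against 2.49% and 2.53% of all genes compared. Its median difference was -1.86, against -0.02 over all genes. All 16 were up in PL-VTA in the authors' deposited table, while in PL-BLA 5 were up and 8 down. Of the 4 genes under the mean of 50, only Stac was called. Fezf2 was enriched in both projections, at 0.84 ± 0.10 in PL-BLA and 2.94 ± 0.16 in PL-VTA in the authors' deposited tables, a difference of -2.10 ± 0.19 (adjusted p = 5.1e-26, Wald z). Bcl11b was instead below Input in PL-BLA, at -1.09 ± 0.09, and above it in PL-VTA, at 1.16 ± 0.14, in the authors' deposited tables. The Bcl11b difference was -2.25 ± 0.17 (adjusted p = 3.1e-37, Wald z). Crym, which encodes a thyroid hormone binding protein, differed by -1.55 ± 0.17 and was above Input in both. S100a10 and Pcp4 were not called. When both errors were multiplied by 1.5, 10 of the 14 stayed called. This list, like the others, was chosen with earlier results of these data known, so its share is no independent support for an identity.

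The layer 5 intratelencephalic list went mostly the other way. Of 12 genes compared, 6 (50%) were higher in PL-BLA, Tnnc1, Myl4, Dkkl1, Deptor, Tcap and Il1rapl2, and 1 (8.33%), Sulf2, an enzyme that edits heparan sulfate, was lower. The median difference was 1.04. Dkkl1, at 1.95 ± 0.11 in PL-BLA and -0.05 ± 0.24 in PL-VTA in the authors' deposited tables, differed by 1.995 ± 0.266 (adjusted p = 2.9e-11, Wald z). Deptor, an inhibitor of mTOR complexes, differed by 1.47 ± 0.23. Etv1, a transcription factor of layer 5, was not called, with values of 0.58 ± 0.10 and 0.66 ± 0.18 in the authors' deposited tables. Errors multiplied by 1.5 left 4 of the 6 higher genes called, and not Sulf2.

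Of 18 upper-layer and callosal genes compared, 5 (27.8%) were higher in PL-BLA, against 2.53% of all genes compared. In this list 0 were lower and 13 not called, with a median difference of 0.39. The higher genes were the LIM domain genes Lmo4 (1.22 ± 0.16) and Lhx2 (1.24 ± 0.22), the homeobox gene Cux2 (1.15 ± 0.29), the calcium buffer gene Calb1 (0.84 ± 0.20) and the growth factor gene Ptn. Calb1 and Cux2 were below Input in both projections and less so in PL-BLA. Cux1 was not called (-0.36 ± 0.20, adjusted p = 0.75, Wald z). With both errors multiplied by 1.5, 2 of the 5 stayed called.

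Of 16 layer 6 and 6b genes compared, 6 (37.5%) were lower in PL-BLA, against 2.49% of all genes compared. In this list 0 were higher and 10 not called, with a median difference of -0.41. The forkhead factor Foxp2 was at -1.75 ± 0.17 in PL-BLA and 0.36 ± 0.25 in PL-VTA in the authors' deposited tables, a difference of -2.11 ± 0.31 (adjusted p = 2.2e-09, Wald z). Tle4, a corepressor of corticothalamic neurons, differed by -0.89 ± 0.22, Sla by -1.57 ± 0.31 and the zinc finger gene Zfpm2 by -1.59 ± 0.35. Syt6, a synaptotagmin, differed by -2.03 ± 0.46, had an SE in PL-VTA 2.28 times that of genes of like mean, and lost its call with the shrinkage approximately undone (adjusted p = 0.059, Wald z). Hs3st4 was also lower. Foxp2 stayed called with both errors multiplied by 1.5, when 1 of the 6 was called. In the near-projecting list, 1 of 4 genes compared, Lypd1, was lower (-1.94 ± 0.24). Of 35 transcription factors of cortical projection neurons 6 were higher and 9 lower, a list that holds several of the genes above and also Nr2f1 and Bcl11a among the higher, and Lmo3, Nfib, Nfia, Bhlhe40 and Etv5 among the lower.

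**Figure D3:**
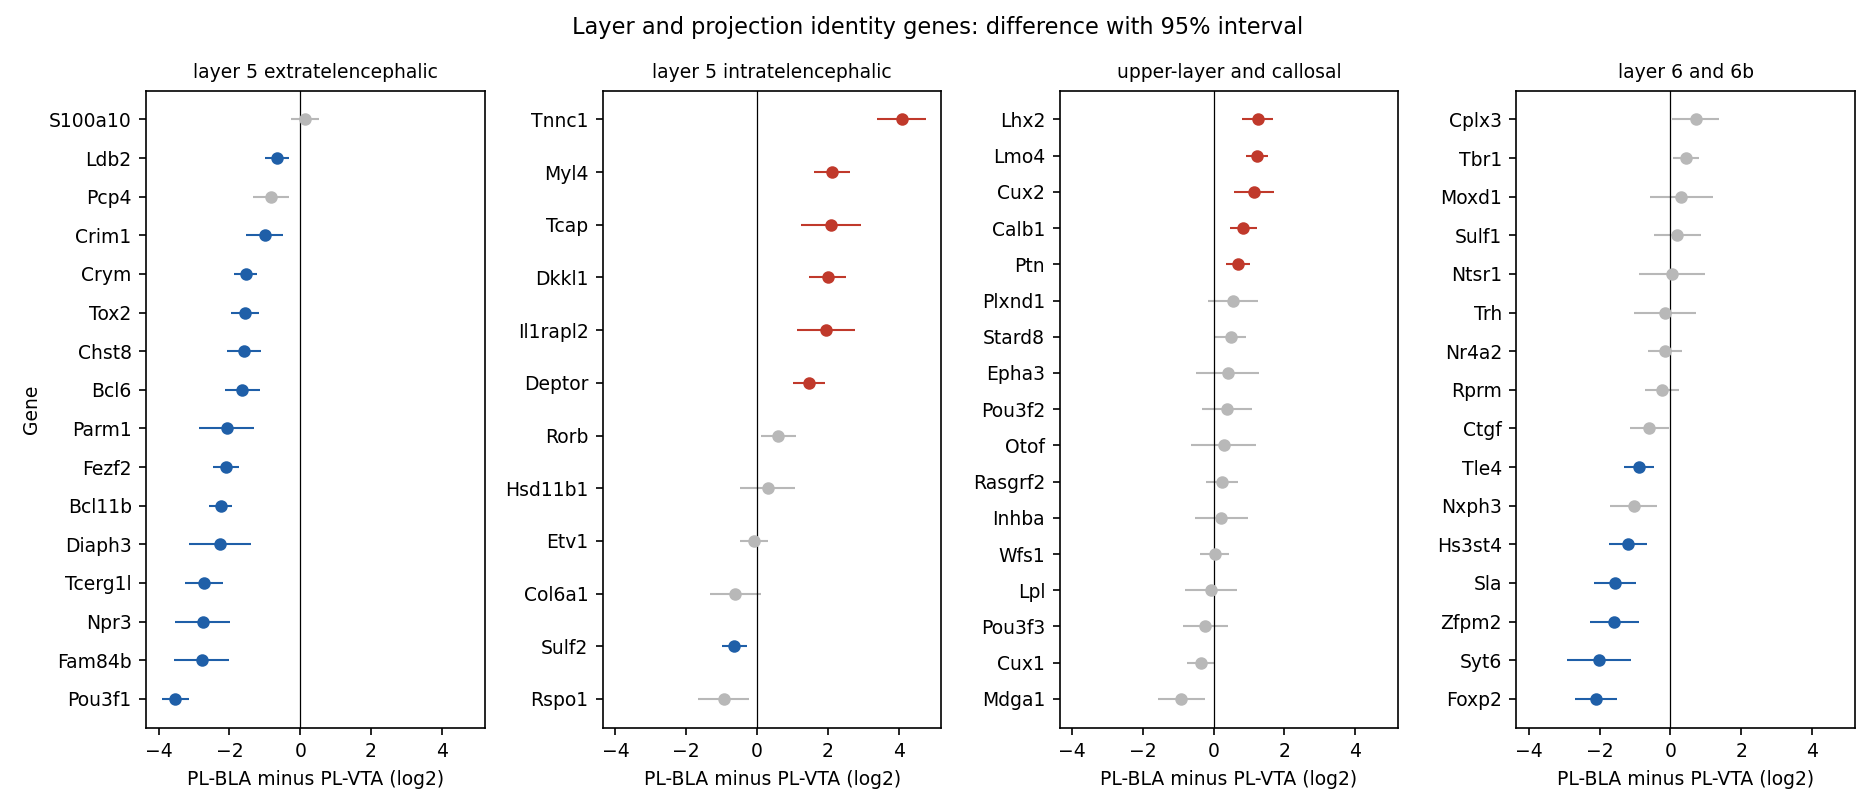
Difference in log2 fold change of IP over Input, PL-BLA minus PL-VTA, for the genes compared in 4 identity lists (panels; 1 upper-layer gene is not shown), with 95% intervals from the combined SE; red and blue mark genes called higher and lower in PL-BLA and grey those not called. In the extratelencephalic panel 14 of 16 genes are called lower, and in the intratelencephalic panel 6 of 12 are called higher.

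PL-NAc, whose libraries are shared with neither projection, lay nearer PL-BLA for most genes that differed. This held for 279 of the 306 higher genes (91.2%) and for 260 of the 301 lower ones (86.4%), against 7003 of the 12097 genes compared (57.9%). The median fold change of the higher genes was 0.58 in PL-BLA, 0.37 in PL-NAc and -0.52 in PL-VTA in the authors' deposited tables. For the lower genes these medians were -0.66, -0.34 and 0.54. The genes were chosen by their PL-BLA and PL-VTA values, and PL-VTA had the wider errors; the part of that choice in these shares was not tested. Fezf2 and Crym were intermediate, with PL-NAc values of 1.57 ± 0.08 and 1.54 ± 0.08 in the authors' deposited table. Mc4r was above Input in PL-NAc (0.85 ± 0.27) as in PL-VTA. The layer 6 and 6b list went the other way, with medians of -0.75 in PL-BLA, 0.22 in PL-VTA and 0.41 in PL-NAc in the authors' deposited tables. Each of its 6 called genes lay nearer PL-VTA in PL-NAc, as with Foxp2 (0.06 ± 0.16), Sla (0.50 ± 0.28), Zfpm2 (0.26 ± 0.16) and Tle4 (0.11 ± 0.11) in the authors' deposited table.

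The differences lay on the IP side of the ratio. A level of IP and of Input was worked out for each gene from its mean and fold change, as an approximation, since the fold changes are shrunken and each table was normalized by itself. Between projections the median size of the log2 ratio of Input levels was 0.08 over the genes compared, and 0 genes reached 2-fold. For the higher genes the median log2 ratio of PL-BLA over PL-VTA was 0.96 for IP and -0.05 for Input. For the lower genes it was -1.18 for IP and -0.02 for Input. The IP ratio was larger in size than the Input ratio in 306 of 306 higher and 300 of 301 lower genes, against 73.7% of all genes compared. The difference is by construction the log2 IP ratio minus the log2 Input ratio. With Input ratios this small, the shares among called genes follow largely from choosing them by that difference. For Pou3f1 the worked-out IP level was 349.4 normalized counts in PL-BLA and 4454 in PL-VTA, with Input at 1093 and 1203. The Tnnc1 levels were 1042 and 47.5 in IP and 342.7 and 265.7 in Input.

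**Figure D4:**
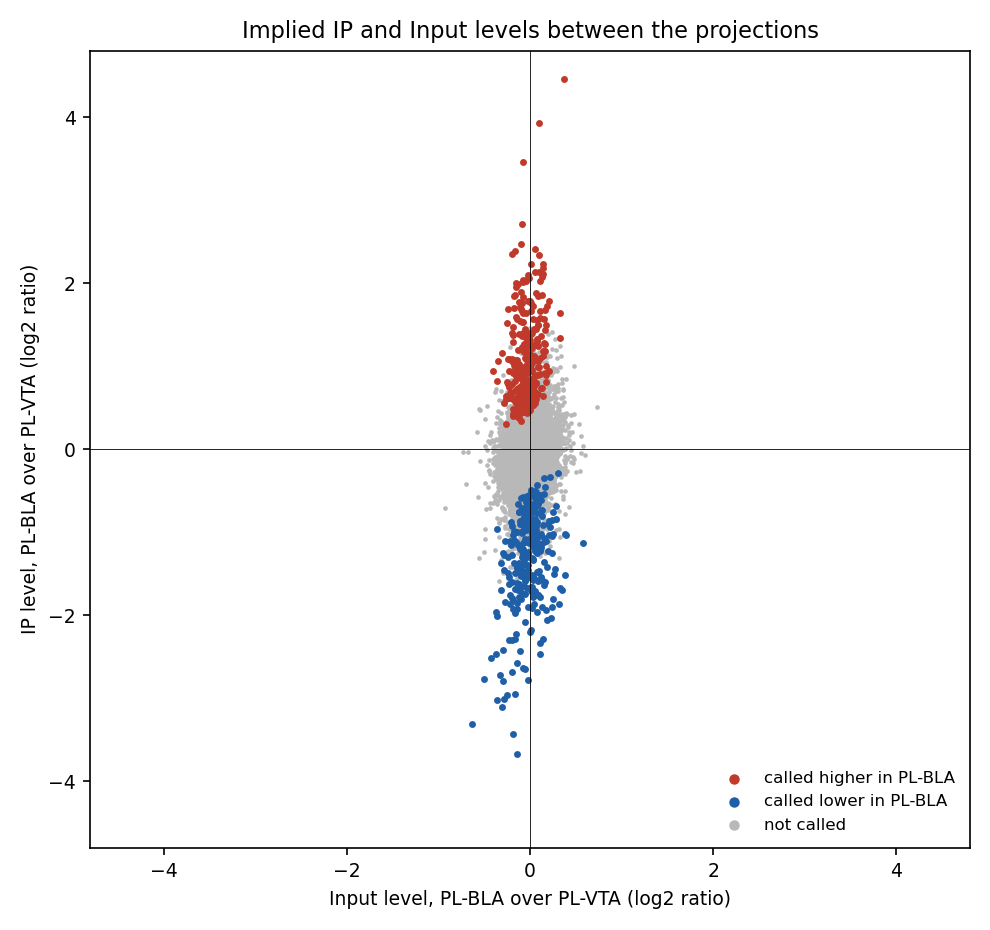
Log2 ratio of PL-BLA over PL-VTA for the worked-out Input level (horizontal axis) and IP level (vertical axis) of each of 12097 genes, in red where called higher, blue where called lower and grey otherwise. Input ratios stay within 2-fold, while IP ratios run from below -3 for Pou3f1 to above 4 for Tnnc1.

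Markers of excitatory neurons were higher in PL-BLA where they differed. Of 18 compared, 6 (33.3%) were higher and 0 lower, against 2.53% and 2.49% of all genes compared. The median difference of the list was 0.44. Slc17a7, the vesicular glutamate transporter VGLUT1, was at 0.75 ± 0.06 in PL-BLA and 0.16 ± 0.12 in PL-VTA in the authors' deposited tables, a difference of 0.59 ± 0.14 (adjusted p = 0.0012, Wald z). Neurod6, the peptide gene Cck, Nptx1 (0.97 ± 0.18), Lingo1 (0.73 ± 0.16) and the Nogo receptor gene Rtn4r were the others. With both errors multiplied by 1.5, 2 of the 6 stayed called. Inhibitory markers were mostly depleted in both projections. Of 28 compared, 23 were down in PL-BLA and 21 in PL-VTA, with medians of -1.34 and -1.33 in the authors' deposited tables. Gad1, the enzyme of GABA synthesis, was at -0.70 ± 0.16 and -0.63 ± 0.16 and was not called. Calls in that list were above the shares over all genes compared. Npy, Sst, Cnr1 and Kcnc2 were higher (4 genes, 14.3%) and Lamp5, Dlx5 and Dlx6os1 lower in PL-BLA (3 genes, 10.7%). Lamp5 was up in PL-VTA (0.77 ± 0.15) in the authors' deposited table. With no strand in the library kit, Dlx6os1 cannot be told apart from genes it overlaps.

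Of 20 genes of striatal medium spiny neurons compared, 8 (40%) were lower in PL-BLA, against 2.49% of all genes compared. In this list 0 were higher and 12 not called, with a median difference of -1.35. All 20 were down in PL-BLA, and in PL-VTA 2 were up and 3 down, in the authors' deposited tables. For 13 of the 20 the PL-VTA error was at least 2 times the median error of about 200 genes of nearest mean. That was so for 75 of all 12097 genes (0.62%), for 25 of the 301 lower genes (8.31%) and for 0 of the 306 higher genes. By the same rule the PL-BLA error was wide for 72 of all genes compared, 10 of the lower and 2 of the higher. Ppp1r1b, which encodes the dopamine signalling protein DARPP-32, was at -1.77 ± 0.07 in PL-BLA and 0.26 ± 0.45 in PL-VTA in the authors' deposited tables, a difference of -2.03 ± 0.45 (adjusted p = 0.00063, Wald z). The calls of Ppp1r1b and Slc35d3 were lost with the shrinkage approximately undone (adjusted p of 0.15 and 0.16, Wald z). Drd1, the D1 dopamine receptor, was not called (-1.41 ± 0.47, adjusted p = 0.074, Wald z), and Drd2 was at -1.11 ± 0.22 and -0.99 ± 0.35 in the authors' deposited tables. Without the genes of wide error, 3 of the list were called lower, among them Gng7, and 274 genes in all. Part of this list is also expressed by deep cortical neurons, and the part of striatal RNA in the lower genes was not tested.

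Glial and vascular markers were seldom called, as was true over all genes compared, of which 2.53% were higher and 2.49% lower. Of 20 astrocyte markers 1, the folate enzyme gene Aldh1l1, was higher (0.89 ± 0.23), and of 20 oligodendrocyte markers 0 were called by the Wald z test (1 at an unadjusted p under 0.05), with medians of 0.23 and 0.01. Mbp, a myelin protein gene, was at -2.53 ± 0.07 in PL-BLA and -2.43 ± 0.12 in PL-VTA in the authors' deposited tables. Of 18 microglial markers 1, the lysosomal gene Cd68, was lower (-1.66 ± 0.42), as was 1 of 10 endothelial and mural markers, Rgs5 (-1.24 ± 0.33). In the authors' deposited tables all 18 microglial markers were down in PL-BLA and 16 in PL-VTA. Of 3 immunoglobulin genes compared, Ighg2c was higher (1.76 ± 0.38) and Igkc was not called; closely related immunoglobulin genes can share reads. Of 8 oligodendrocyte precursor, 5 blood and choroid plexus and 4 midbrain monoamine neuron markers 0 were called by the Wald z test, with 0, 3 and 1 at an unadjusted p under 0.05. Hemoglobin genes were depleted in both, Hbb-bs at -4.16 ± 0.24 and -3.31 ± 0.30 in the authors' deposited tables.

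Voltage-gated channels differed in both directions. Of 66 potassium channel genes 4 (6.06%) were higher and 7 (10.6%) lower, against 2.53% and 2.49% of all genes compared. Kcng2, a modifying subunit of Kv2 channels, had the largest of these, with -0.46 ± 0.18 in PL-BLA and 1.86 ± 0.21 in PL-VTA in the authors' deposited tables and a difference of -2.32 ± 0.28 (adjusted p = 3e-14, Wald z). Another modifying subunit, Kcnv1, went the other way (1.23 ± 0.18), as did the mechanically gated leak channel gene Kcnk4 (1.72 ± 0.31) and the EAG channel gene Kcnh1 (1.05 ± 0.21). Kcnn2, Kcng1, Kcnip1, Kcna5, Kcna1 and Kcns3 were also lower, and Kcnc2 higher. Of 8 sodium channel genes 2 were lower, Scn1a (-0.97 ± 0.20) and the beta subunit gene Scn4b (-2.05 ± 0.41), the latter with a wide PL-VTA error. Of 19 calcium channel genes 2 were lower, the T-type channel gene Cacna1h (-1.71 ± 0.30) and Cacna2d3 (-0.78 ± 0.19). Of 17 genes of calcium stores and pumps, Orai2 was higher (1.02 ± 0.26). With both errors multiplied by 1.5, Kcng2, Kcnv1, Kcnk4 and Cacna1h were the genes still called in these lists.

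Presynaptic genes were split as well. Of 49 compared, 5 (10.2%) were higher and 6 (12.2%) lower in PL-BLA, against 2.53% and 2.49% of all genes compared. The median difference of the list was 0.02. The membrane fusion protein gene Stx1a differed by 1.11 ± 0.14, the vesicle protein gene Syn2 by 1.04 ± 0.14 and the active zone gene Rims3 by 1.11 ± 0.18 (adjusted p of 3.7e-12, 4.4e-11 and 8.4e-08, Wald z). Syn2 was at 1.16 ± 0.06 in PL-BLA and 0.12 ± 0.12 in PL-VTA in the authors' deposited tables. The vesicle GTPase gene Rab3c went toward PL-VTA (-1.07 ± 0.18), together with Stxbp2, Cplx1, Unc13c, Rims2 and Syt6. Syn1 and Syt13 were the other higher genes. At errors 1.5 times as large, 3 higher and 1 lower gene were called.

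Each glutamate and GABA receptor list held at most 1 call in each direction, against 2.53% higher and 2.49% lower over all genes compared. Of 17 ionotropic glutamate receptor genes, Gria4, an AMPA receptor subunit, was higher (0.98 ± 0.21) and Grik2, a kainate receptor subunit, lower (-1.23 ± 0.26). Of 7 metabotropic ones, Grm2 was higher (0.79 ± 0.20) and Grm4 lower (-0.86 ± 0.26), the latter losing its call with PL-VTA scaled to the spread of PL-BLA (adjusted p = 0.059, Wald z). Of 14 GABA receptor genes, Gabbr2, a subunit of the GABA-B receptor, was higher (0.71 ± 0.15). Among 24 postsynaptic scaffold genes 0 were called, and their medians were 0.08 in PL-BLA and 0.16 in PL-VTA in the authors' deposited tables. Among 19 genes of neurexin ligands and partners 0 were called. By the same Wald z test 1 scaffold gene and 5 of these partners had an unadjusted p under 0.05. None of the 5 named receptor calls stayed with both errors multiplied by 1.5.

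Neuropeptides and their receptors held some of the stronger differences. Of 22 peptide genes compared, 4 (18.2%) were higher and 4 (18.2%) lower, against 2.53% and 2.49% of all genes compared. Cck, the gene of cholecystokinin, was at 1.21 ± 0.07 in PL-BLA and -0.50 ± 0.16 in PL-VTA in the authors' deposited tables, a difference of 1.71 ± 0.18 (adjusted p = 8.8e-19, Wald z). Npy, the gene of neuropeptide Y, was below Input in both, at -1.33 ± 0.10 and -3.07 ± 0.17 in the authors' deposited tables, and differed by 1.74 ± 0.19. Sst, the gene of somatostatin, differed by 1.16 ± 0.21, and the granule protein gene Chgb was also higher. Adcyap1, the gene of PACAP, was above Input in both and lower in PL-BLA (-0.86 ± 0.24), and Tac1, the gene of substance P, was lower (-2.43 ± 0.46), with an SE in PL-VTA 2.96 times that of genes of like mean. Pdyn and Cartpt were also lower. Grp, the gene of gastrin-releasing peptide, was above Input in both and not called (-0.75 ± 0.39, adjusted p = 0.66, Wald z). With both errors multiplied by 1.5, 3 higher and 0 lower peptide genes were called, and 4 and 2 without the genes of wide error.

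Of 28 peptide and hormone receptor genes, 5 (17.9%) were higher and 4 (14.3%) lower, against 2.53% and 2.49% of all genes compared. Sstr3, a somatostatin receptor, differed by 1.40 ± 0.30, and Cnr1, the cannabinoid receptor of neurons, by 0.81 ± 0.18, with Rxfp1, Npy1r and Crhr1 also higher. Mc4r and Npr3, above, led the lower ones, with Nr3c2 and Sstr4. Mc4r and Npr3 alone of the 9 stayed called with both errors multiplied by 1.5. Adra1b, an alpha-1 adrenergic receptor, was the only 1 of 8 dopamine and adrenergic receptor genes called (1.66 ± 0.26, adjusted p = 8.4e-08, Wald z). It was at 0.995 ± 0.116 in PL-BLA and -0.67 ± 0.24 in PL-VTA in the authors' deposited tables. Of 10 serotonin and 7 acetylcholine receptor genes 0 were called by the Wald z test, with 4 and 0 at an unadjusted p under 0.05.

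Of 20 neurofilament and axon cytoskeleton genes 5 (25%) were lower in PL-BLA and 1 (5%) higher, against 2.49% and 2.53% of all genes compared. Gap43, a growth cone protein gene, was at 0.69 ± 0.06 in PL-BLA and 1.58 ± 0.13 in PL-VTA in the authors' deposited tables, a difference of -0.88 ± 0.14 (adjusted p = 1.4e-07, Wald z). The intermediate filament genes Ina (-0.79 ± 0.15) and Nefm (-0.80 ± 0.16), with Nefh and Nefl, were the other lower genes, and Basp1, a membrane protein gene of axon terminals, was higher (0.60 ± 0.14). Gap43 alone stayed called with both errors multiplied by 1.5. Of 55 axon guidance genes 3 (5.45%) were higher, Epha4 (0.73 ± 0.19), Ephb6 and Unc5d, and 4 (7.27%) lower, the ephrin gene Efnb3 (-1.28 ± 0.19), its receptor family gene Ephb1 (-1.32 ± 0.27), the Slit receptor gene Robo1 (-1.68 ± 0.36) and Rgma. Of 24 cadherin genes, Cdh10 was higher (1.41 ± 0.25), and Cdh13 (-1.42 ± 0.17), Pcdh17 (-1.26 ± 0.22), Cdh22 (-0.97 ± 0.22) and Cdh8 were lower. Cdh13 was above Input in both projections. Of 26 kinesin and dynein genes 0 were called by the Wald z test, with 1 at an unadjusted p under 0.05. Of 17 collagen and matrix genes Col4a1, a basement membrane collagen gene, was higher (1.46 ± 0.45), a call lost with the shrinkage approximately undone (adjusted p = 0.15, Wald z).

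Activity-regulated genes were higher in PL-BLA where they differed. Of 20 immediate early genes 4 (20%) were higher and 0 lower, against 2.53% and 2.49% of all genes compared. The median difference of the list was 0.40. Fos was at 0.79 ± 0.12 in PL-BLA and -0.41 ± 0.20 in PL-VTA in the authors' deposited tables, and differed by 1.20 ± 0.23 (adjusted p = 2.8e-05, Wald z). Arc differed by 1.19 ± 0.24, Junb by 0.88 ± 0.18 and Egr1 by 0.61 ± 0.15. The SE of Arc in PL-BLA was 2.62 times that of genes of like mean. None of the 4 was called with both errors multiplied by 1.5. Of 39 genes of cyclic nucleotide signalling, Pde9a, a phosphodiesterase of cyclic GMP, was lower (-1.37 ± 0.32), as was Prkar2a (-0.61 ± 0.19), whose call was lost on centring the differences on their median (adjusted p = 0.056, Wald z).

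Of 74 cytosolic ribosomal protein genes, 78 mitochondrial ribosomal protein genes, 63 translation factor genes and 35 proteasome genes 0 were called in each by the Wald z test, with medians of -0.03, -0.13, 0.04 and 0.04. At an unadjusted p under 0.05 there were 1, 0, 0 and 1 of these. Of 12 stress response genes 0 were called or under that unadjusted p, and of 11 interferon and antigen presentation genes Ifi27 was lower (-1.08 ± 0.23). Of 77 nuclear genes of oxidative phosphorylation 4 (5.19%) were lower and 0 higher, against 2.49% and 2.53% of all genes compared. Of the 77 differences 70 were negative, with a median of -0.20. Cox6c was at 0.24 ± 0.08 in PL-BLA and 0.79 ± 0.13 in PL-VTA in the authors' deposited tables, a difference of -0.55 ± 0.16 (adjusted p = 0.018, Wald z), and Ndufa3, Cox7b and Ndufa4 were the others. None of these 4 was called with both errors multiplied by 1.5.

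Mitochondrially encoded mRNAs and nuclear noncoding RNAs, which are not on cytosolic ribosomes, were down in both projections in the authors' deposited tables. Of 7 mitochondrially encoded mRNAs compared 6 (85.7%) were lower and 0 higher, against 2.49% and 2.53% of all genes compared. The medians of the 7 were -5.11 in PL-BLA, -3.22 in PL-VTA and -6.30 in PL-NAc in the authors' deposited tables. For mt-Nd2 the difference was -2.26 ± 0.50 (adjusted p = 0.00054, Wald z), and mt-Cytb was not called (-1.05 ± 0.48, adjusted p = 0.44, Wald z). All 7 had wide PL-VTA errors. In PL-BLA the SEs of mt-Nd2, mt-Nd4, mt-Nd5, mt-Nd6 and mt-Cytb were also wide, at 3.58, 3.76, 2.83, 2.54 and 4.85 times those of genes of like mean. Of the 7, 0 were called with the shrinkage approximately undone, when mt-Nd2 was at -1.44 ± 0.71. Of 6 nuclear noncoding RNAs 3 (50%) were lower and 0 higher. Malat1 was at -5.93 ± 0.21 in PL-BLA and -3.73 ± 0.40 in PL-VTA in the authors' deposited tables. These SEs were 3.21 and 3.19 times those of genes of like mean. The Malat1 difference of -2.20 ± 0.45 also lost its call with the shrinkage approximately undone (adjusted p = 0.45, Wald z). Meg3 (-0.91 ± 0.20) and Snhg11 (-0.72 ± 0.20) lost theirs with PL-VTA scaled to the spread of PL-BLA (adjusted p of 0.091 and 0.28, Wald z). Snhg11, in this noncoding list, is annotated as protein coding in GENCODE M21. The median difference of oligodendrocyte markers was 0.01, and the part of these RNA classes in the other differences was not tested. Of 19 imprinted genes 1 (5.26%), Cdkn1c, was higher and 4 (21.1%), Nnat (-0.95 ± 0.20), Peg3 (-0.84 ± 0.19), Meg3 and Zdbf2, were lower.

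**Figure D5:**
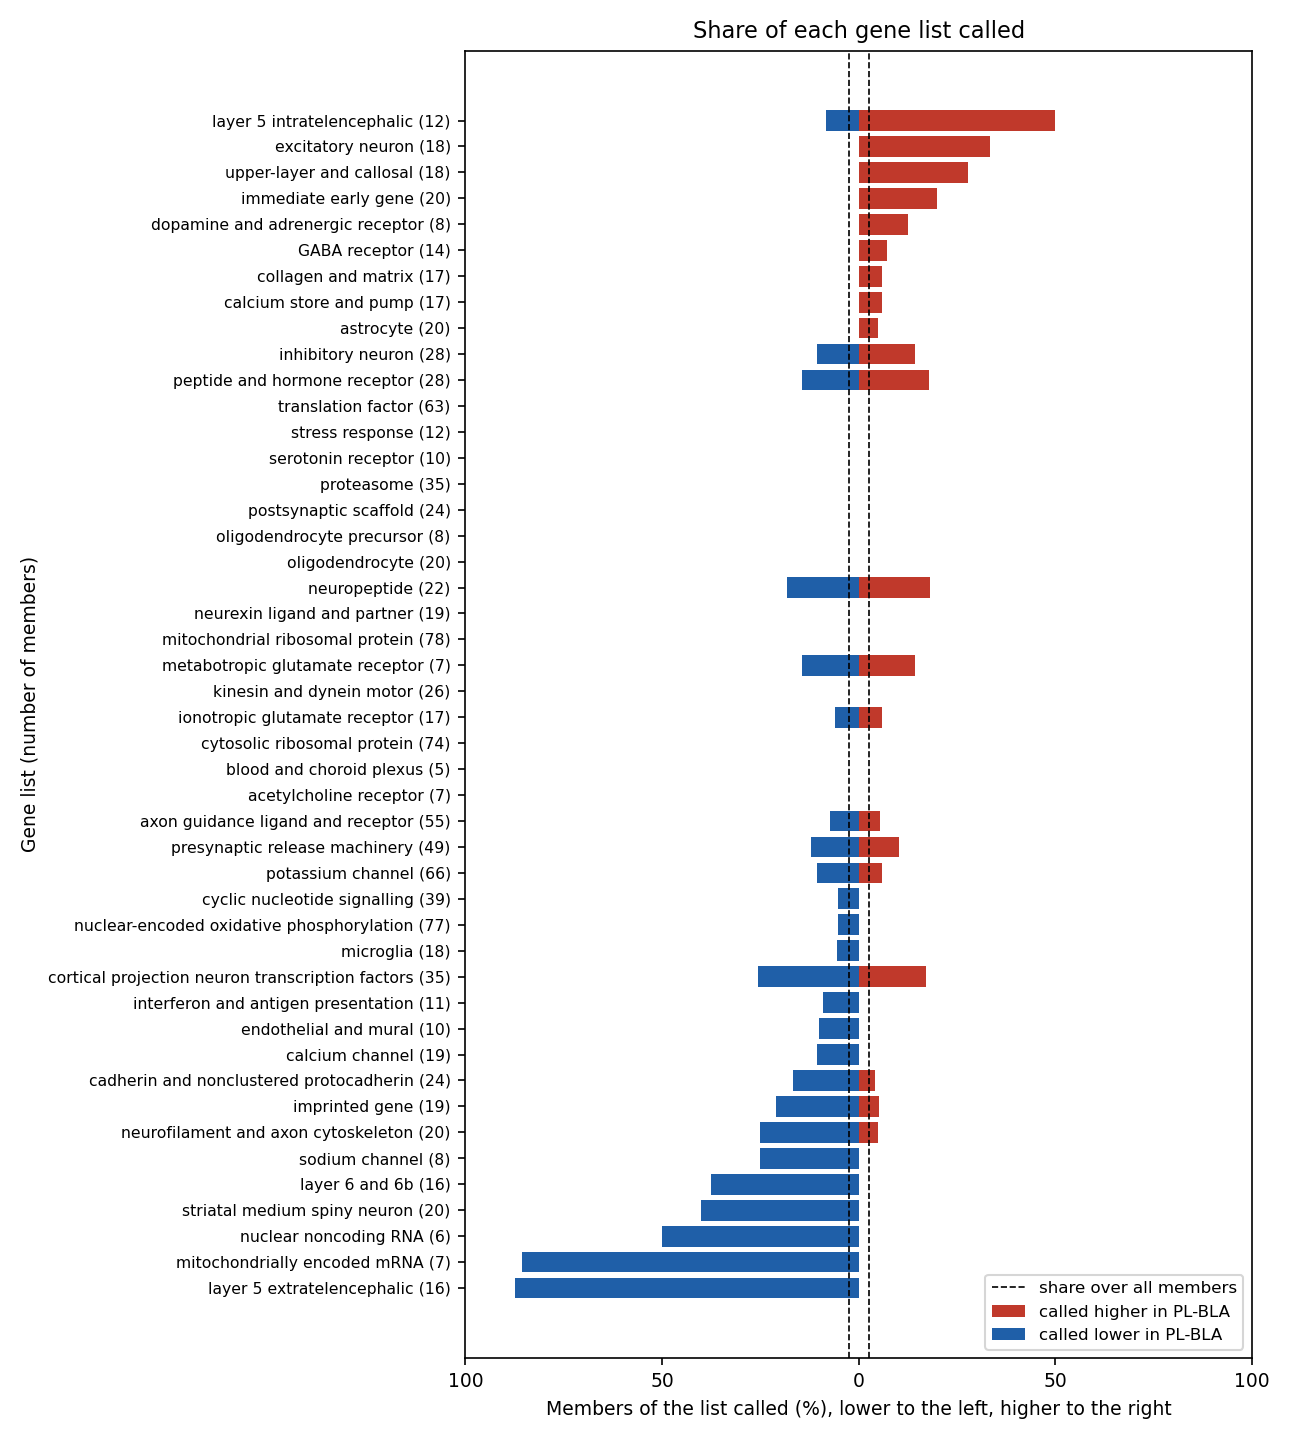
Share of the compared genes of each list that was called higher (red, to the right) or lower (blue, to the left) in PL-BLA, in percent, with the number of genes in brackets; the dashed lines are the shares over all 12097 genes, 2.53% higher and 2.49% lower. The extratelencephalic list (87.5% lower) and the intratelencephalic list (50% higher) lie far from the dashed lines at opposite ends. The lists were chosen with earlier results of these data known.

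The minimum mean of 50 left out few calls. Of the 9516 genes tested below it, 53 were called. Of 421 genes whose lower mean was between 40 and 50, 10 were called, and of 331 between 50 and 60, 9. Just inside it were Klf8 (0.20 ± 0.51), Zfp618 (0.03 ± 0.51), Gm12060 (-0.27 ± 0.52), Lst1 (0.73 ± 0.52) and Osr1 (0.43 ± 0.51). Just outside were Ap4e1 (-0.30 ± 0.51), Ntn5 (1.48 ± 0.52), 9330162012Rik (-0.31 ± 0.52), Gm16380 (-0.32 ± 0.52) and Vsig10l (-0.82 ± 0.50). The 5 genes on each side had like errors, near 0.5.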

How the data were processed

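Polysome-bound RNA (IP) and total RNA (Input) of the PL were sequenced; per the labels' protocols, libraries used the SMARTer Ultra Low kit followed by Nextera XT. Per the submitters' processing notes, the authors used STAR 2.3, featureCounts and DESeq2 on GRCm38 (mm10), with settings not given in the sources used here. Each of the 3 tables deposited by the authors holds, per the file headers, a mean normalized count for each gene (a signal averaged over the libraries), a log2 fold change with its SE, a test statistic (a score), a p-value and an adjusted p-value. The headers do not name the direction, and the sign of glial and mitochondrial genes showed it to be IP over Input. At the 50 genes of lowest mean the deposited log2 fold changes were all -0.03 for PL-BLA and -0.04 for PL-VTA, and the values were taken to be shrunken toward 0.

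From these, the difference between PL-BLA and PL-VTA was computed for each gene, with an SE from the root of the summed squared SEs (the projections share no library). A two-sided Wald z was adjusted by the Benjamini-Hochberg method over 21613 genes and called at 0.05, with Python 3.11.15, pandas 2.3.3 and scipy 1.17.1. The calculation was run on data simulated with normal noise of the deposited SEs. That run cannot check the SEs themselves, the shrinkage or the normal reference. The normal reference distribution is approximate with 3 and 2 libraries per kind of RNA. Genes with a mean of at least 50 in both tables were described. Coordinates are from GENCODE M21 (GRCm38) and sequences from RefSeq (GRCm38.p6). Named genes are the 15 largest and 15 smallest called differences, up to 4 called genes with the smallest p from each of 50 lists (or the most abundant, up to 2), a set of fixed genes, and the 10 largest and 10 smallest differences among genes called in opposite directions; genes given by name alone in the list counts, and the genes at the threshold, were chosen after their values were seen. The members and lists were chosen with earlier results of these data known. No list was tested as a set. Some genes are not reported here. Alternatives covered the minimum mean, centring, scaling, larger errors, a minimum difference, the genes adjusted over, shrinkage and genes of wide error. Of the fixed genes, Igha and Vegfd were under the mean of 50 in PL-VTA (38.6 and 46.6).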

Additional observations from a re-analysis of the deposited data

Results flagged for a closer look

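The counts of genes that differed between the projections are listed here because the test of the difference itself was passed: 306 genes higher in PL-BLA, 301 lower, and 108 called in opposite directions by the authors' deposited tables with a called difference.

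Genes with opposite directions include Pou3f1 (difference of -3.53 on the log2 scale, PL-BLA minus PL-VTA), Mc4r (-3.25), Fam84b (-2.79), Npr3 (-2.75), Tcerg1l (-2.72), Cxcl12 (-2.71), Shisa2 (-2.66), Gpr4 (-2.60), Igfbp4 (-2.49) and Tekt5 (-2.48), all below Input in PL-BLA and above it in PL-VTA. The reverse pattern was found for Tnnc1 (4.09), Susd5 (3.83), Cdkn1c (3.54), Il12a (2.80), Slc30a3 (2.57), Car4 (2.55), Smoc2 (2.55), Sccpdh (2.25), Bok (2.22) and Neurod6 (2.16). These 20 are the 10 largest differences in each direction among the 108. PL-NAc was nearer PL-BLA for 101 of the 108 genes (93.5%), and this share was not tested.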

How the results depend on the processing

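Under 9 of the 11 alternatives the counts stayed within 1.5 times of 306 higher, 301 lower and 108 opposite genes: 260 to 342 were higher, 237 to 337 lower and 90 to 114 opposite. With both errors multiplied by 1.5 the counts were 67, 63 and 70, and for a difference beyond 0.5 they were 67, 74 and 69. No gene called under any alternative and in the report changed direction. Approximately undoing the shrinkage and leaving out genes of wide error were added after seeing the data. They called 293 higher and 270 lower, and 304 and 274 genes.

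Of the 115 named genes that were called, 50 kept the call under all alternatives that tested them, 51 lost it only with the larger errors or the minimum difference, and 14 under another alternative. Drd1 was called when p was adjusted over the 12097 genes alone (adjusted p = 0.045, Wald z). No named difference that was called, in the report or under an alternative, changed sign. Some near 0 that were not called did, such as Drd2, from -0.12 to 0.02 with the shrinkage approximately undone. Leaving out a replicate was not possible, since the tables used here hold no value per library. No paired analysis was possible because the tables used here hold 1 fold change per gene and projection, and the replicates of the 2 projections share no value to pair. Within each projection the IP and Input libraries carry matching replicate numbers. Whether the authors' test paired them is not given in the sources used here, and the SEs depend on it. The precision is set by 2 IP and 2 Input libraries in PL-VTA, and the depth of each library is unknown.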

Other observations

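Atg7, an autophagy gene not described above, had high values in all 3 projections in the authors' deposited tables, at 2.77 ± 0.10 (PL-BLA), 2.45 ± 0.17 (PL-VTA) and 1.91 ± 0.08 (PL-NAc). The difference between PL-BLA and PL-VTA was 0.32 ± 0.20 (adjusted p = 0.93, Wald z). Rpl10a, a mouse ribosomal protein gene, was at -0.18 ± 0.27 in PL-BLA and -0.07 ± 0.39 in PL-VTA in the authors' deposited tables, with a mean of 76.6 in PL-VTA. Igha, an immunoglobulin heavy chain gene under the mean of 50 in PL-VTA, was at 4.61 ± 0.29 (PL-BLA) and 1.48 ± 0.45 (PL-VTA), and Vegfd, a vascular growth factor gene, at 2.89 ± 0.22 and 0.37 ± 0.43, in the authors' deposited tables.

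Of the 306 genes higher in PL-BLA, 304 were protein coding (99.3% of those annotated) and 0 long noncoding, and of the 300 annotated lower genes 289 were protein coding (96.3%) and 8 long noncoding (2.67%). Over all genes compared these shares were 94.6% and 1.79%, and they were not tested. The median PL-BLA mean was 1216 normalized counts in the higher and 619.6 in the lower genes, against 517.1 over all genes compared, and the median PL-VTA mean was 903.6, 926.2 and 528.1.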
